A study of Mus musculus with 12 samples.

Results

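Serum-stimulated NIH 3T3 cells that had been depleted of Lap2 were compared with serum-stimulated control siRNA treated cells, to describe which classes of genes were raised or lowered by the depletion. NIH 3T3 is an immortal fibroblast line derived from mouse embryos. The comparison held 6 of the 12 RNA-seq libraries of the study, chosen by their labels: 3 libraries of cells given negative control siRNA and 3 of cells given an siRNA against all Lap2 isoforms, each starved in 0.3% FBS and then given 15% FBS for 45 min. The other 6 libraries came from cells with the same siRNAs that remained in 0.3% FBS, and they were used for the spread between replicates and as a second condition. A single siRNA sequence was used against Lap2 for these libraries, so effects of the sequence other than loss of Lap2 cannot be told apart from effects of that loss. Nothing in the labels or the methods says that the 3 libraries of a group came from separate cultures, and the p-values then measure only the spread between these libraries.

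Lap2 (lamina-associated polypeptide 2) is made from the gene Tmpo in several splice forms. Some of them are anchored in the inner nuclear membrane, where they bind B-type lamins, and the α form lies in the nucleoplasm with A-type lamins. Serum given to quiescent fibroblasts signals through ERK and through actin. ERK acts on the ternary complex factors, and the actin branch releases MRTF-A, and both kinds of cofactor act on the transcription factor SRF, which binds a short element called the CArG box in the promoters of immediate-early and cytoskeletal genes.

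The 6 libraries had total counts between 19230387 and 26265253, and the 10 genes with the most counts took 8.36% to 8.87% of a control library and 7.62% to 8.15% of a Lap2 siRNA library. Log2 CPM (counts scaled to the library total) correlated across genes with a Pearson r of 0.995 to 0.997 within a group and 0.974 to 0.982 between groups. Mitochondrially encoded genes took 2.69% to 3.20% of the counts with control siRNA and 3.56% to 3.82% with Lap2 siRNA, and the part of this difference in the results was not tested. Of 12 fibroblast markers, 11 were at 1 CPM or more and Fap was not. Markers of epithelial cells summed to at most 1.09 CPM and those of endothelial cells to at most 2.06 CPM in any of the 6 libraries, with Epcam, Krt18, Cldn3 and Cldn4 at 0. Leukocyte markers summed to 2.82 to 3.02 CPM with control siRNA and 3.33 to 3.80 CPM with Lap2 siRNA. Of these, Cd68 was at 1 CPM or more, and Adgre1, Itgam and Cd3e were at 0. Adipocyte markers summed to 2.92 to 4.45 CPM with control siRNA and 3.57 to 4.16 CPM with Lap2 siRNA, with Retn at 1 CPM or more. Of 8 neural markers, Gfap, Map2, Snap25 and Tubb3 were at 1 CPM or more, and their sums are given below.

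Tmpo itself was examined first. It had 3264, 3243 and 3019 normalized counts (counts scaled by TMM to a common library size) in the 3 control libraries, and 767, 745 and 607 in the 3 Lap2 siRNA libraries. The groups did not overlap, and Lap2-depleted cells held 22.2% of the control level (log2FC -2.17, SE 0.08, edgeR adjusted p = 3.8e-19). A two-sided exact permutation test of these 6 values gave p = 0.1, the smallest that 20 arrangements allow. Gm26765, a noncoding gene, lies across Tmpo on the other strand, and whether the counting used strand is not stated.

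Lap2 depletion changed the expression of 4374 of the 18668 genes tested in 15% FBS (23.4%, adjusted p under 0.05 in edgeR's quasi-likelihood test), 2124 of them higher (11.4%) and 2250 lower (12.1%). Most changes were small. The higher genes had a median log2FC of 0.37, with 404 above 0.6 and 133 above 1, and the lower genes a median size of 0.47, with 766 past 0.6 and 277 past 1. For nearly all called genes the 6 libraries did not overlap between the groups. Genes without a call could part in this way as well, as Gapdh and Ptgs2 did. Such parting therefore adds little to a call where it is given below, and its share over all tested genes is not given. Scaling the libraries to their total counts in place of TMM moved the median log2FC of all genes by 0.09 and gave 3471 higher and 1678 lower genes, 67.4% higher against 48.6%. Directions given here are therefore relative to the typical gene, whose log2FC was 0.02. In bulk RNA, fewer cells of a kind and less RNA per cell cannot be told apart.

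Calls followed the depth of a gene. In the third of the genes with the lowest counts, 60 of 6223 were called higher and 65 lower, against 1126 and 1406 of 6223 in the third with the highest counts. Of the 13906 protein-coding genes, 14.6% were higher and 15.6% lower. Of the 753 lincRNA genes, whose mean normalized counts had a median of 4.56, 21 were higher and 19 lower. Of the 935 genes annotated as antisense, 6 were higher and 20 lower.

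Where the 6 libraries averaged 100 normalized counts or more, the largest decrease was that of Nppb (ENSMUSG00000029019, chromosome 4 from 147985788 to 147987205 in mm10), which encodes brain natriuretic peptide. Its normalized counts were 811, 813 and 980 in control cells against 187, 130 and 176 in depleted cells. Every Lap2-depleted library was below every control library, which was a condition for the genes of this paragraph (log2FC -2.40, SE 0.14, adjusted p = 1.5e-14). Dcxr, encoding dicarbonyl and L-xylulose reductase, had 434, 439 and 425 normalized counts against 99.3, 88.0 and 68.6, which left 19.7% of the control level (log2FC -2.35). Pi16, which encodes a secreted peptidase inhibitor, had 627, 679 and 851 against 213, 139 and 137 (log2FC -2.15). Both sets of 3 libraries were tight beside the gap between them. The other genes with decreases of this size were Actg2, Acta1, Col11a1, Ccn2 and Igfbp5, described below with their families, Sh3gl3 (endophilin A3, log2FC -1.89) and Cd200, a surface glycoprotein of the immunoglobulin family (240, 247 and 258 against 76.2, 70.0 and 73.4 normalized counts, log2FC -1.76). Gm15270, a processed transcript antisense to Ccn2, stood at 651, 241 and 220 against 124, 98.6 and 98.5 (log2FC -1.81). Its first control library lay well above the other two, and without that library the log2FC was -1.13. It cannot be told apart from Ccn2 if the counting did not use strand.

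**Figure D1:**
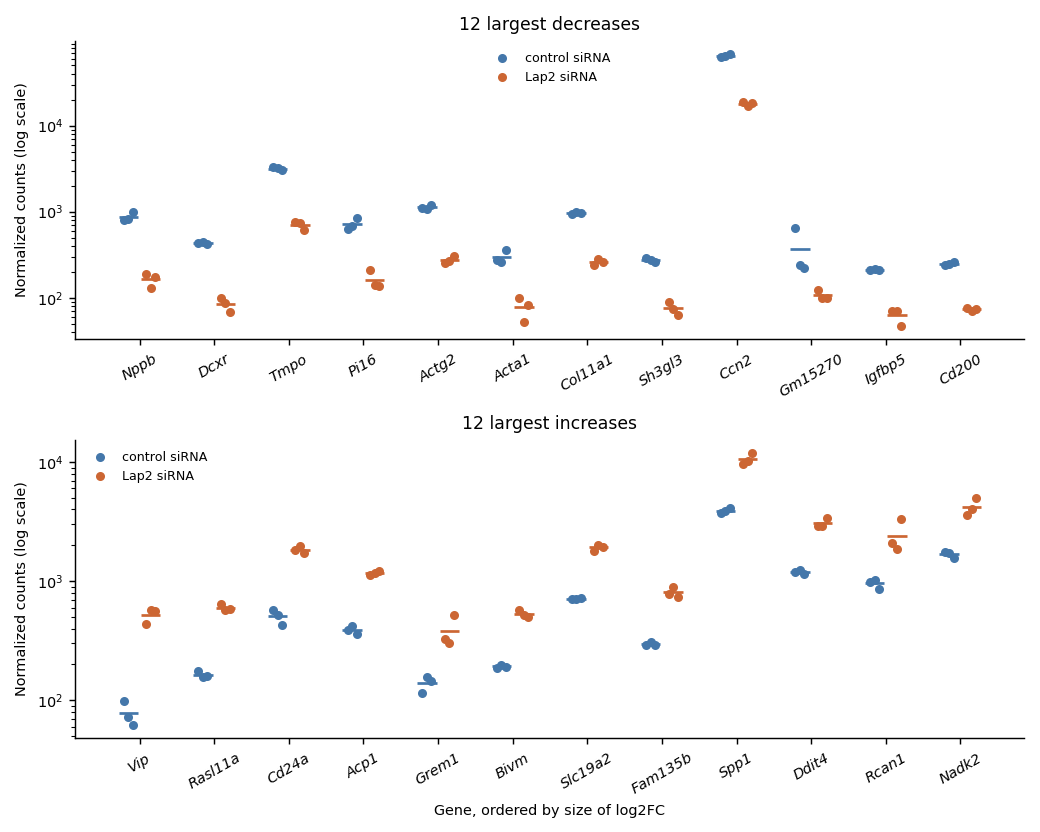
Normalized counts on a log scale (y axis) of the 12 genes with the largest decreases (upper panel) and increases (lower panel) in Lap2-depleted cells in 15% FBS, with control siRNA in blue and Lap2 siRNA in orange. Points are the 3 libraries of a group and bars their means. The genes were chosen among those averaging 100 normalized counts or more in these 6 libraries, with groups that do not overlap. Vip shows the widest gap of the raised genes shown, at 670.8% of the control mean.

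With the same limit on mean counts, the largest increase was that of Vip (ENSMUSG00000019772, chromosome 10 from 5639218 to 5647617), the gene of vasoactive intestinal peptide. Its 99.4, 72.2 and 62.5 normalized counts with control siRNA stood against 439, 573 and 558 with Lap2 siRNA (log2FC 2.73, SE 0.15, adjusted p = 3.8e-15). Spp1 (osteopontin, a secreted matrix phosphoprotein) was the most counted of the 12 genes, with 3739, 3862 and 4140 against 9616, 10113 and 11848 (log2FC 1.43). These genes were also higher in 0.3% FBS, with log2FC of 3.29 and 2.29. Cd24a, a surface glycoprotein held by a lipid anchor, had 578, 515 and 427 against 1823, 1971 and 1710 (log2FC 1.85), close to its log2FC of 1.82 in 0.3% FBS. Acp1, a phosphotyrosine phosphatase of low molecular weight, had 390, 417 and 364 against 1137, 1163 and 1212 (log2FC 1.58), and Alkal2 overlaps it on the opposite strand. Slc19a2, a thiamine transporter, had 708, 704 and 718 against 1800, 2024 and 1931 (log2FC 1.43). Each of these sets of 6 values parted by siRNA, which was a condition of their choice.

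Other raised genes had effects that differed between the serum conditions. Rasl11a, a small GTPase of the RAS-like family, had 176, 157 and 159 normalized counts against 640, 574 and 583 (log2FC 1.86), against a log2FC of 0.63 in 0.3% FBS (interaction adjusted p = 1.4e-07). Ddit4, which encodes the mTORC1 inhibitor REDD1, had 1194, 1244 and 1149 against 2932, 2887 and 3403 (log2FC 1.36), with a log2FC of 0.14 that did not pass in 0.3% FBS (interaction adjusted p = 9.2e-11). Rcan1, an inhibitor of calcineurin, had 981, 1022 and 868 against 2092, 1852 and 3303 (log2FC 1.34, interaction adjusted p = 1.9e-04). The third Rcan1 library with Lap2 siRNA stood above the other two, and all 3 were above the controls, as the choice of these genes required. The remaining large increases were those of Grem1, given with its family below, Nadk2, the mitochondrial NAD kinase (log2FC 1.33), Bivm (log2FC 1.47) and Fam135b (log2FC 1.43).

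Gene classes were described through 34 lists of pathways, complexes and families, by the share of their tested members called in each direction and by their median log2FC. The plot of these shares sets them beside the 11.4% of all genes that were higher and the 12.1% that were lower. Among the 10320 genes averaging 100 normalized counts or more in these 6 libraries, 18.5% were higher and 19.4% lower. Most lists consist mainly of such genes, so shares near or below these values do not set a list apart. Where leaving out 1 library moved a count or median given below by over 1.5 times, the value without it follows. The libraries are called control 1 to 3 and Lap2 1 to 3 in the order of the values, and those in 0.3% FBS are named as such.

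**Figure D2:**
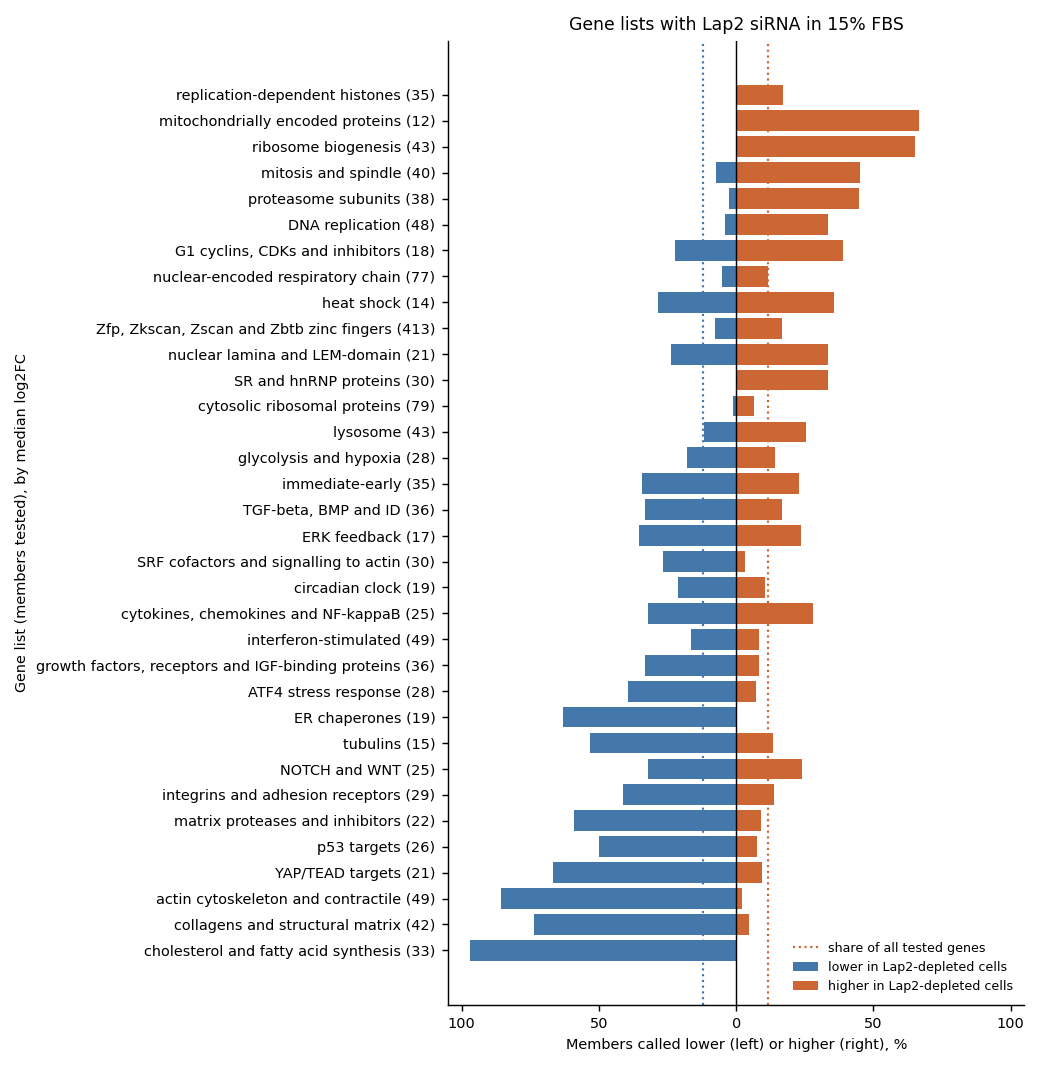
Share of the tested members of each of 34 gene lists called lower (blue, to the left) or higher (orange, to the right) in Lap2-depleted cells in 15% FBS, with the number tested in parentheses. Dotted lines mark the shares of all tested genes, 12.1% lower and 11.4% higher, and lists are ordered by median log2FC, from cholesterol and fatty acid synthesis at the bottom (-0.76) to the replication-dependent histones at the top (1.17), most of which had low counts.

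Genes of cholesterol and fatty acid synthesis fell almost without exception. In this pathway acetyl-CoA is turned into mevalonate, then into isoprenoids, squalene and cholesterol, or into fatty acids, and most of its genes are under the control of the SREBP transcription factors. Of 33 members tested, 32 were lower. The list had a median log2FC of -0.76, against 0.02 for all genes, and each lowered member held at most 83.9% of the control level. The exception was Srebf1, which encodes SREBP1 (1681, 1776 and 1907 normalized counts against 1720, 1741 and 1603, log2FC -0.08, adjusted p = 0.45). Srebf2, encoding SREBP2, was lower (log2FC -0.44).

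The lowered genes lay along the whole pathway. At the head of the mevalonate branch, Hmgcs1 had a log2FC of -0.67. Mvd, the decarboxylase at its end, fell further, from 2788, 2551 and 2765 normalized counts to 1214, 1169 and 1291 (log2FC -1.14, SE 0.07, adjusted p = 4.0e-14). Idi1, the isomerase of the next step, had a log2FC of -0.99. Of the sterol steps, Sqle (log2FC -0.61), Cyp51 (-0.54) and Sc5d (-0.51) moved less than Hsd17b7 (-0.95) and Lss, which was left at 50.2% of control. Of the genes that supply acetyl-CoA, Acss2, which makes acetyl-CoA from acetate, had 1113, 1032 and 1027 against 385, 393 and 366 (log2FC -1.47), Acly, which makes it from citrate, 18846, 19106 and 18278 against 8008, 7748 and 7373 (log2FC -1.28). Elovl6, of fatty acid elongation, had a log2FC of -1.14. The 2 stearoyl-CoA desaturases Scd1 and Scd2 had log2FC of -0.84 and -0.95. In 0.3% FBS, 31 of the 33 members were lower as well, beside 18.6% of all genes. The effect was called different between the serum conditions for 7 of the 33, beside 13.6% of all genes.

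**Figure D3:**
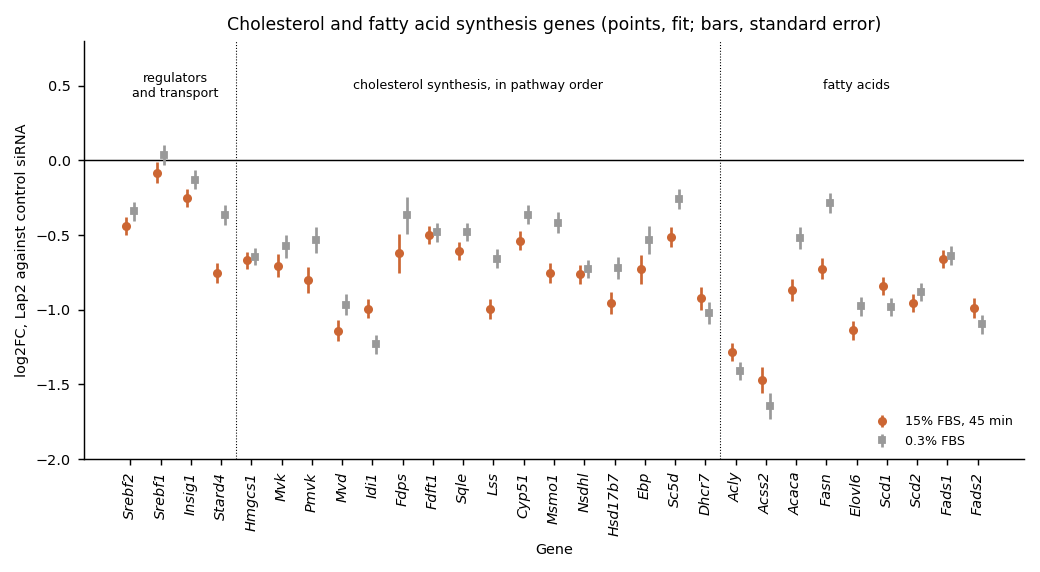
Log2FC of Lap2 against control siRNA (y axis) for 29 of the 33 tested genes of cholesterol and fatty acid synthesis in 15% FBS (orange circles) and 0.3% FBS (grey squares), with bars for the standard error. Cholesterol genes are in pathway order between the dotted lines. All values shown for 15% FBS lie below 0, with Srebf1 nearest to it and Acss2 lowest at -1.47.

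Genes of the actin cytoskeleton formed the next most uniform class, with 42 of 49 tested members lower, 1 higher and a median log2FC of -0.42. Among the actins, those of muscle type fell furthest. Actg2, enteric smooth muscle actin, had 1091, 1081 and 1198 normalized counts with control siRNA against 251, 265 and 304 (log2FC -2.03, SE 0.11, adjusted p = 4.8e-15), and Acta1, skeletal muscle actin, had 272, 261 and 359 against 98.2, 52.0 and 82.1 (log2FC -1.94). The 2 groups stood far apart for both genes. Acta1 was the only skeletal muscle marker of 8 at 1 CPM or more, and Myod1, Myog, Myf5 and Ckm were at 0 (summed list 11.7 to 15.6 CPM with control siRNA and 2.85 to 4.84 CPM with Lap2 siRNA). Acta2, smooth muscle α-actin, had 41391, 40295 and 40924 against 12398, 12419 and 12100, a gap many times the spread (log2FC -1.73). Tagln, the actin-binding transgelin of smooth muscle, had 11606, 11582 and 12933 against 5227, 4852 and 5116 (log2FC -1.25). The cytoplasmic actins moved less (Actb log2FC -0.37, Actg1 -0.30). Actin transcripts resemble each other, so the counting could have divided reads between them. The single raised member was Mylk, myosin light chain kinase (340, 356 and 385 against 444, 401 and 468 normalized counts, log2FC 0.28, adjusted p = 0.044), and it lost its call under 11 of the alternative settings, among them those without control 1 or 2, without Lap2 1 or 3, and without any 0.3% FBS library but Lap2 1 (adjusted p up to 0.22). In 0.3% FBS, where 17.8% of all genes were higher and 18.6% lower, the same list had 11 members higher and 21 lower, and its effect differed between serum conditions for 28 members, against 13.6% of all genes.

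Because serum acts on this class through SRF, the RefSeq promoter windows (GRCm38.p6, 250 bases before to 50 after the start site) of its members were searched for the CArG box, which is CC, then 6 bases of A or T, then GG, and reads alike on both strands. A window was found for 36 of the 42 lowered members, and 9 of these genes held a match. Of the 7 members with a window that were not lowered, 0 held a match. Among all tested genes with a window, 189 of 11805 held a match (1.60%), and among all genes with a window 488 of 27025 (1.81%). The class was searched because SRF is known to act on it, so an excess over all genes does not bear on the lowering. Those not lowered are too few for a comparison, and a link between matches and lowering was not tested. Matches in the 8 matching genes with the lowest log2FC are shown, with the motif in capitals, on the gene's strand and from 5′ to 3′.
Fhl1, chrX:56779571-56779600: ccttggatcaCCTAAAATGGttaagaattt
Acta1, chr8:123894829-123894858: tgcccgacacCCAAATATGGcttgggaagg
Myl9, chr2:156775293-156775322: caagcagaggCCTAATAAGGccgggctggc
Filip1l, chr16:57549170-57549199: atgccgcgcgCCTTATAAGGctgagcggtg
Cnn2, chr10:79988534-79988563: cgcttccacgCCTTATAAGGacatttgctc
Vcl, chr14:20929161-20929190: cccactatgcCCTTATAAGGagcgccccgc
Fhl2, chr1:43163973-43164002: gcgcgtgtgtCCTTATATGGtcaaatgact
Fhl2, chr1:43196838-43196867: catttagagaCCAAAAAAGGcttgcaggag
Actg1, chr11:120348566-120348595: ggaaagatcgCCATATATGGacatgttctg
Fhl2 has a match in each of 2 promoters. The centres lie between 27 and 223 bases before the start site. The log2FC of these genes ran from -2.37 for Fhl1, a LIM-domain gene, to -0.30 for Actg1. It was -0.91 for the myosin light chain gene Myl9 and -0.69 for Vcl, which encodes vinculin. Fhl1 was called lower but is not among the largest decreases above, so it missed their limit on mean counts or its groups overlapped. Which of these held is not given, so the value of Fhl1 did not meet all the conditions set for the genes named there. A match is a description of these letters, and Actg2 and Tagln, which had no window here, were not searched.

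The regulators upstream of actin moved less than their targets. Of 30 genes of SRF, its cofactors and the signalling to actin, 8 were lower and 1 higher (median log2FC -0.10), with 14 lower without Lap2 1 in 0.3% FBS, and 2 higher without it or without control 3. Srf itself fell from 19940, 19096 and 19651 normalized counts to 13142, 12665 and 13066 (log2FC -0.59, SE 0.06, adjusted p = 1.0e-09), while Mrtfa, which encodes MRTF-A, had 1791, 1794 and 1611 against 1793, 1737 and 1724 (log2FC 0.01, adjusted p = 0.93). The largest change was that of Rnd3, an atypical small GTPase that opposes RhoA (2387, 2466 and 1926 against 1147, 1120 and 1070, log2FC -1.02). Elk3, a ternary complex factor, was lower (log2FC -0.82). Rhob was the raised member (log2FC 0.29).

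Immediate-early genes, which serum induces without new protein synthesis, went both ways. Of 35 tested, 8 were higher and 12 lower, and the median log2FC of -0.07 became 0.02 with scaling to total counts. The higher count was 5 without control 3, and the median was -0.03 without control 2, -0.04 without control 3 and -0.02 without Lap2 3. Those that were lower included Klf2 (429, 500 and 304 normalized counts against 186, 293 and 152, log2FC -0.98), the kinase gene Plk2 (12635, 12910 and 12390 against 7057, 7483 and 7576, log2FC -0.78), Egr4 (log2FC -0.70) and Egr3 (log2FC -0.56). The 6 values of Plk2 were tight and those of Klf2 loose. Those that were higher included the orphan receptor gene Nr4a2 (log2FC 0.56), the anti-apoptotic gene Mcl1 (7503, 7096 and 7139 against 10393, 10982 and 10409, log2FC 0.55) and Cebpb (log2FC 0.53). Neither Egr1 (log2FC -0.07, adjusted p = 0.63) nor Fos (log2FC 0.21, adjusted p = 0.076) passed, though Fos passed under 6 of the alternative settings. Ptgs2, which encodes cyclooxygenase 2, and Ier3 also missed the threshold (log2FC 0.10 for both, adjusted p = 0.27 and 0.33), and both passed with scaling to total counts. In 0.3% FBS they were higher (log2FC 2.22 and 0.95). Of the 35, 18 were higher and 8 lower in 0.3% FBS, beside 17.8% and 18.6% of all genes. The effect was called different for 23, beside 13.6% of all genes.

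The negative feedback genes of ERK were divided as well, with 4 of 17 higher and 6 lower, and their median log2FC of -0.08 also changed sign with scaling to total counts (0.00). It was -0.04 without Lap2 1 and -0.13 without Lap2 3. Of the phosphatase genes, Dusp10 fell (2217, 2038 and 1990 normalized counts against 1238, 1111 and 1041, log2FC -0.88), Dusp6 fell less (6494, 6514 and 6129 against 4566, 4493 and 4767, log2FC -0.47) and Dusp2 rose (847, 747 and 767 against 1168, 1086 and 1435, log2FC 0.64). Of the Sprouty genes, Spry1 was lower (log2FC -0.57) and Spry4 higher (log2FC 0.37). Errfi1, which encodes an inhibitor of the EGF receptor, was lower (40288, 39555 and 37238 against 28552, 28443 and 25082, log2FC -0.51).

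Of 21 targets of YAP and TEAD, which respond to cell tension and adhesion, 14 were lower and 2 higher (median log2FC -0.39). Ccn2 had the largest change in this list (63465, 64766 and 67432 normalized counts against 18888, 16876 and 18153, log2FC -1.86). Ankrd1, a muscle ankyrin repeat gene, had 1519, 1519 and 1323 against 638, 732 and 740 (log2FC -1.05), and F3, which encodes tissue factor, had a log2FC of -0.74. Both genes parted fully by siRNA, as their choice required. Ccn1, the matricellular relative of Ccn2, had 71224, 74621 and 76001 against 58334, 53141 and 49113 (log2FC -0.47). The 2 raised members were Foxf2, a forkhead factor (477, 468 and 494 against 974, 933 and 887, log2FC 0.96), and Tgfb2 (log2FC 0.81). Ccn2, Ccn1 and Ankrd1 were higher than control in 0.3% FBS (log2FC 2.33, 1.54 and 0.64), so their sign was opposite in the 2 serum conditions (interaction adjusted p = 1.7e-21, 3.8e-13 and 1.4e-10). Across all genes, 104 of the 2250 lower genes were called higher in 0.3% FBS and 70 of the 2124 higher genes lower.

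Most of the extracellular matrix list was lower. Of 42 collagens and structural matrix genes, 31 were lower and 2 higher (median log2FC -0.44). Col11a1, a fibrillar collagen chain, had 949, 986 and 966 normalized counts against 239, 282 and 260 (log2FC -1.89, SE 0.10, adjusted p = 4.9e-16). Col6a2, one of the collagen VI chains, had 63892, 67121 and 71902 against 31589, 29304 and 26856 (log2FC -1.21). Mfap4, of elastic microfibrils, had 416, 383 and 509 against 191, 156 and 157 (log2FC -1.38), and a log2FC of -3.83 in 0.3% FBS. The raised members were Thbs2, which encodes thrombospondin 2 (log2FC 0.37), and Lox, the lysyl oxidase that crosslinks collagen (40285, 40489 and 42148 against 48875, 49723 and 42691, log2FC 0.20). The third Lap2 siRNA library of Lox lay close to its controls, and Lox lost its call without any one of 4 libraries, control 1 or 2 or Lap2 1 or 2 (adjusted p up to 0.15), which left 1 raised member. The fibroblast marker list, which shares Col1a1, Col1a2, Col3a1 and Fn1 with this class, summed to 38677 to 41855 CPM with control siRNA and 29492 to 32575 CPM with Lap2 siRNA. The part of this shift in the matrix values was not tested.

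**Figure D4:**
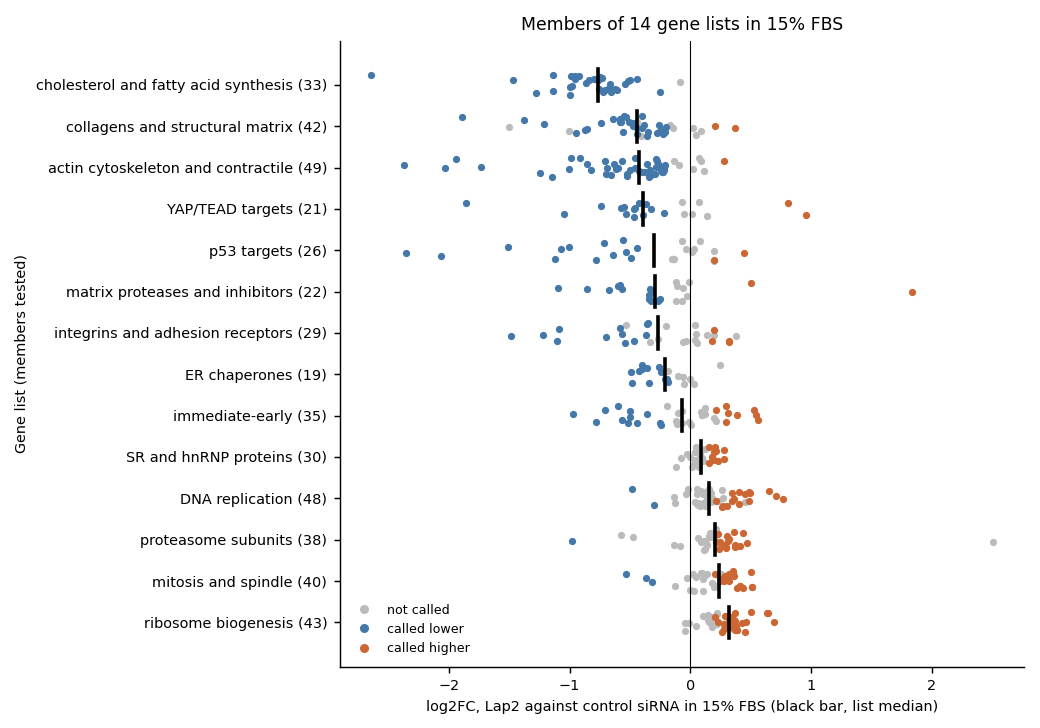
Log2FC in 15% FBS (x axis) of every tested member of 14 of the gene lists, with genes called lower in blue, called higher in orange and not called in grey. Black bars mark list medians, which run from -0.76 for cholesterol and fatty acid synthesis to 0.32 for ribosome biogenesis. Vertical scatter within a row has no meaning.

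Matrix proteases and their inhibitors followed, with 13 of 22 lower and 2 higher, or 1 without Lap2 3 (median log2FC -0.29). Mmp11 had 689, 754 and 729 normalized counts against 385, 327 and 307 (log2FC -1.10), and Mmp9, a gelatinase, 1753, 1764 and 1842 against 1139, 998 and 834 (log2FC -0.85). The inhibitor gene Timp3 was also lower (log2FC -0.67), and the protease gene Adamts9 was higher (log2FC 0.50). Integrins and adhesion receptors had 12 of 29 members lower and 4 higher (median log2FC -0.26). The median was -0.10 without control 2, and 2 were higher without control 1 or Lap2 1 and 1 without Lap2 3. The β3 integrin gene Itgb3 had 591, 614 and 594 against 231, 201 and 213 (log2FC -1.48, SE 0.12, adjusted p = 8.7e-12) and Itga9 had 1050, 971 and 1075 against 523, 482 and 435 (log2FC -1.11). The gap in both exceeded the spread many times over. The β5 gene Itgb5 was higher (1367, 1460 and 1529 against 1883, 1797 and 1756, log2FC 0.32). Tubulins and their partners had 8 of 15 lower and 2 higher (median log2FC -0.23). Tubb2b had 2357, 2369 and 2441 against 1174, 989 and 872 (log2FC -1.24), and Tuba1a, an α-tubulin, had a log2FC of -0.78. The tubulin gene Tubb3, itself among the lowered members, also belongs to the 8 neural markers. All 8 together summed to 25.1 to 27.8 CPM with control siRNA and 19.9 to 23.7 CPM with Lap2 siRNA.

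Signalling lists were mixed. In the TGF-β, BMP and ID list, 6 of 36 were higher and 12 lower, with a median log2FC of -0.08 that became 0.01 with scaling to total counts. It was -0.11 without control 1 and -0.12 without control 2. The BMP antagonist gene Grem1 had 116, 157 and 145 normalized counts against 327, 302 and 519 (log2FC 1.47), and the inhibitory Smad6 had 303, 267 and 264 against 605, 572 and 655 (log2FC 1.13). Inhba, which encodes the activin A subunit, fell from 1603, 1570 and 1889 to 692, 750 and 887 (log2FC -1.12), and Ltbp4, a binding protein of latent TGF-β, had a log2FC of -0.94. Of 36 growth factor and receptor genes, 12 were lower and 3 higher (median log2FC -0.20). Igfbp5 had 209, 217 and 212 against 70.5, 71.0 and 47.3 (log2FC -1.76), and Gas6, a ligand of TAM receptors, had a log2FC of -0.91. The mitogen gene Hgf was higher (1678, 1676 and 1614 against 2653, 2903 and 2941, log2FC 0.77), as was Fgf7 (log2FC 0.45). Secreted factors of fibroblasts thus went in both directions. Of 25 NOTCH and WNT genes, 8 were lower and 6 higher, among them the ligand gene Jag1 (3732, 3597 and 3976 against 1781, 1624 and 1669, log2FC -1.16) and Ccn5 (524, 534 and 456 against 837, 819 and 933, log2FC 0.77).

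Genes of ribosome biogenesis were raised, with 28 of 43 members higher and the other 15 not called (median log2FC 0.32). Its members process ribosomal RNA and assemble ribosomal subunits in the nucleolus. Tsr1, an assembly factor of the small subunit, had 1357, 1314 and 1372 normalized counts against 2076, 2022 and 2442 (log2FC 0.70, SE 0.07, adjusted p = 6.7e-09). Nop56, of the box C/D snoRNPs, had 1559, 1622 and 1717 against 2529, 2403 and 2701 (log2FC 0.64), and Polr1b, a subunit of RNA polymerase I, 320, 336 and 335 against 484, 467 and 582 (log2FC 0.63). All 3 genes rose by about the same factor. Of the 28, 27 were also higher in 0.3% FBS, where 39 of the 43 were higher, beside 17.8% of all genes. Fewer of the ribosomal proteins themselves were called than of all genes, with 5 of 79 higher (6.33%), 1 lower (1.27%) and a median log2FC of 0.05 (0.03 without Lap2 3). The higher count was 1 without control 2 or 3 or Lap2 1 or 3, 3 without control 1 or Lap2 2 or without control 1 or 3 in 0.3% FBS, and 14 without Lap2 1 in 0.3% FBS, and the lower count lay between 0 and 2.

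Proteasome subunits had 17 of 38 members higher, 1 lower and a median log2FC of 0.20, with 11 higher without Lap2 3 and 2 lower without control 3. Psma7, of the core particle, had 2217, 2103 and 2163 normalized counts against 2877, 2975 and 3127 (log2FC 0.47), and Psmc4, of the ATPase ring, a log2FC of 0.43. The lowered subunit stood apart. Psmc1, another ATPase of the same ring, had 2395, 2519 and 2321 against 1278, 1162 and 1225 (log2FC -0.98, SE 0.07, adjusted p = 6.9e-13), 50.7% of control. SR and hnRNP splicing proteins had 10 of 30 higher, with log2FC of at most 0.28, but 6 without any one control library and 3 without Lap2 3. The heat shock list had 5 of 14 higher and 4 lower. Among them, the Hsp90 gene Hsp90ab1 fell (55890, 56361 and 55097 against 40520, 39640 and 39172, log2FC -0.49), while Hsph1 (log2FC 0.57) and Hspd1, the mitochondrial chaperonin (7395, 7181 and 7326 against 9112, 9007 and 10920, log2FC 0.41), were higher.

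Chaperones of the endoplasmic reticulum moved the other way, with 12 of 19 lower and the other 7 not called (median log2FC -0.21), and 7 lower without control 3. Hsp90b1, encoding GRP94, had 17684, 18315 and 19651 normalized counts against 13144, 13531 and 13067 (log2FC -0.49), and Sel1l, of the degradation complex in that membrane, the same log2FC (-0.49). Genes of the ATF4 stress response were lower for 11 of 28 members and higher for 2 (median log2FC -0.21), with 7 lower without Lap2 1 and 6 without Lap2 2. The amino acid transporter gene Slc7a5 had 2878, 2804 and 2915 against 1874, 1745 and 1908 (log2FC -0.64), and the factor gene Atf5 2022, 1999 and 2072 against 1365, 1308 and 1296 (log2FC -0.62). Ddit4, given above, and Ddit3, which encodes CHOP (954, 889 and 964 against 1281, 1244 and 1655, log2FC 0.58), were the raised members.

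The list of p53 targets, which also holds Trp53, the gene of p53, had 13 of 26 members lower and 2 higher (median log2FC -0.30). Trp53 was slightly higher (2778, 2822 and 2597 normalized counts against 3173, 3162 and 3075, log2FC 0.20) and is counted among the 2. Its call was lost without control 1 or 3 or Lap2 1 or 2 (adjusted p up to 0.099), which left 1 raised member. The lowered members included Dcxr, given above, Gtse1, a G2 and S phase gene (385, 327 and 284 against 139, 111 and 102, log2FC -1.51), and Zmat3 (2916, 2905 and 2709 against 1362, 1292 and 1271, log2FC -1.12). The raised members were Trp53 and Sesn1 (log2FC 0.44). The classic target Cdkn1a did not pass.

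Cell cycle genes went in both directions, with more called higher than lower. Of 48 DNA replication genes, 16 were higher and 2 lower (median log2FC 0.15, or 0.10 without Lap2 3), and of 40 mitosis and spindle genes, 18 were higher and 3 lower (median log2FC 0.23). The higher count of replication genes was 9 without control 1, 10 without control 3 and 8 without Lap2 3, and the lower count 1 without control 2 and 0 without Lap2 1. Cdt1, a licensing factor of replication origins, had 429, 419 and 471 normalized counts against 693, 630 and 922 (log2FC 0.77), and Cdc20, an activator of the anaphase-promoting complex, 1227, 1214 and 1129 against 1554, 1828 and 1712 (log2FC 0.51). The mitotic kinase gene Cdk1 went the other way (1078, 1056 and 1083 against 725, 758 and 740, log2FC -0.53), with Cenpf (log2FC -0.32) and Kif4 (log2FC -0.37). The groups did not overlap for these genes, which was a condition of their choice. In 0.3% FBS the median log2FC was larger, 0.81 for replication and 0.91 for mitosis. There 45 of 48 and 40 of 40 members were higher, beside 17.8% of all genes. The effect differed between serum conditions for 32 of 48 and 40 of 40, beside 13.6% of all genes. Of the cyclins of G1, Ccnd1 (789, 802 and 689 against 414, 408 and 585, log2FC -0.69) and Ccnd2 (3895, 4170 and 3786 against 2534, 2483 and 2880, log2FC -0.58) were lower, while Ccne2 (131, 102 and 91.4 against 165, 181 and 216, log2FC 0.79) and Ccne1 (log2FC 0.30) were higher. Ccne1 lost its call without control 1 or 3 or Lap2 3 (adjusted p up to 0.21), and Cenpf without Lap2 3 (adjusted p = 0.059). The D-type and E-type cyclins therefore had opposite signs. The G1 list as a whole had 7 of 18 members higher and 4 lower (median log2FC 0.12, or 0.05 without Lap2 3). The higher count was 4 without control 2 or Lap2 2, 2 without Lap2 1 and 1 without control 3. The other raised members were Cdkn1b, Cdkn2c, Cdkn2d, E2f3 and Rbl2, and the other lowered ones Ccnd3 and Cdk6.

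**Figure D5:**
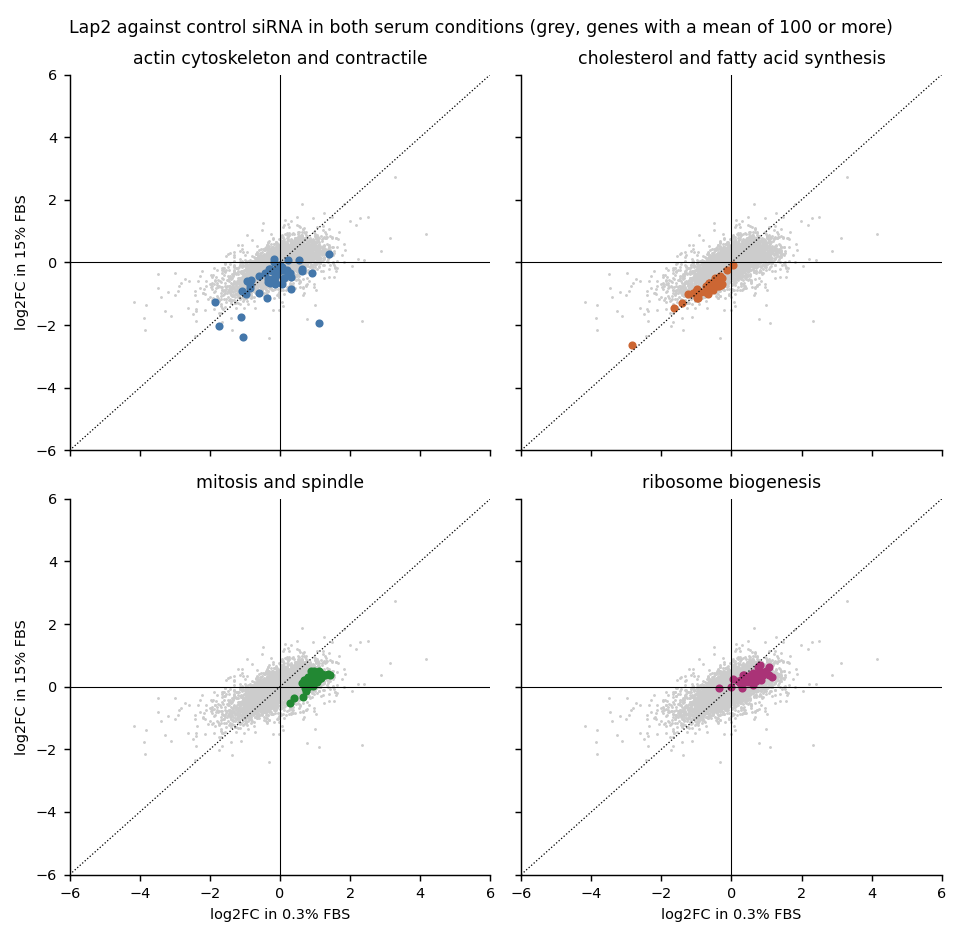
Log2FC of Lap2 against control siRNA in 15% FBS (y axis) against that in 0.3% FBS (x axis), with grey points for the 10320 genes averaging 100 normalized counts or more and coloured points for the tested members of 4 lists. The dotted line marks equal values. Lipid synthesis genes lie along it, mitosis genes lie to the right of 0 and below it, and many actin genes lie below it.

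Between the serum conditions, 1331 of the 2124 higher genes (62.7%) were also higher in 0.3% FBS, and 1636 of the 2250 lower genes (72.7%) were also lower there. These were 40.0% and 47.0% of the genes called in the same direction in 0.3% FBS, where 6810 genes passed (36.5%). The log2FC of the 2 conditions had a Pearson r of 0.66 and a Spearman rho of 0.65 across the 10320 genes averaging 100 normalized counts or more, against 0.29 and 0.39 across all 18668 genes tested, and these comparisons share no library. Genes are not independent replicates, so this is a description. Interferon-stimulated genes were lower for 29 of 49 members in 0.3% FBS, beside 18.6% of all genes. In 15% FBS 8 of them were lower and 4 higher (median log2FC -0.16), with 2 higher without control 1 or 2 or Lap2 3. The largest decrease among them was that of Gbp2, a guanylate-binding protein gene (611, 572 and 628 against 244, 203 and 186 normalized counts, log2FC -1.52).

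Among genes of inflammation, 7 of 25 were higher and 8 lower. The NF-κB inhibitor gene Tnfaip3 had 397, 467 and 337 normalized counts against 171, 158 and 130 (log2FC -1.39), the cytokine gene Lif 2367, 2337 and 2421 against 1331, 1128 and 1259 (log2FC -0.94) and Nfkb2 a log2FC of -0.64. The colony-stimulating factor gene Csf1 rose (18311, 17728 and 22423 against 26808, 28401 and 28635, log2FC 0.52), as did Bcl3, an atypical IκB gene (390, 400 and 391 against 593, 613 and 541, log2FC 0.56), which was lower in 0.3% FBS (log2FC -1.21, interaction adjusted p = 6.7e-12).

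Other components of the nuclear envelope were examined because Lap2 binds lamins and shares the LEM domain with emerin. Of 21 such genes, 7 were higher, or 3 without control 1, and 5 lower (median log2FC 0.09). Lmnb1, lamin B1, had 1078, 986 and 957 normalized counts against 514, 579 and 576 (log2FC -0.86, SE 0.08, adjusted p = 3.1e-10), and Lbr, the lamin B receptor, 2720, 2790 and 2935 against 1960, 2016 and 2041 (log2FC -0.49). Lmnb2, lamin B2, was higher (386, 385 and 410 against 527, 523 and 617, log2FC 0.50). The 2 genes of B-type lamins thus had opposite signs, and Lmna, of the A-type lamins, did not pass. The largest increases were those of Ankle1 (log2FC 0.79) and Nemp1 (log2FC 0.61).

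In the lysosome list, 11 of 43 were higher (7 without Lap2 3) and 5 lower (3 without control 3 or Lap2 2). The median log2FC of 0.02 lay between -0.03, without control 1, and 0.07, without control 3. Gla, α-galactosidase, had 441, 467 and 511 normalized counts against 818, 866 and 991 (log2FC 0.92), Mitf, a factor that drives lysosomal genes in several cell types, 248, 259 and 212 against 457, 377 and 458 (log2FC 0.84), and Lipa, the acid lipase, 2057, 2168 and 2339 against 1531, 1347 and 1231 (log2FC -0.68). Of 28 genes of glycolysis and hypoxia, 4 were higher and 5 lower, and the median of -0.06 turned to 0.03 with scaling to total counts and was -0.10 without Lap2 3. The lower count was 2 without control 3 or Lap2 1 or 2 and 8 without Lap2 1 in 0.3% FBS. Hk2, hexokinase 2, had 1649, 1665 and 1988 against 2884, 2992 and 3469 (log2FC 0.82), and Pgk1, phosphoglycerate kinase, 5809, 5864 and 5893 against 3536, 3363 and 3773 (log2FC -0.72), so steps of the same pathway differed in sign. Gapdh did not pass (log2FC -0.12, adjusted p = 0.15). Of 19 circadian clock genes, 4 were lower and 2 higher (2 lower without Lap2 3, 1 higher without it or control 3), with Per2 at a log2FC of -0.66 and Cry2 at 0.38.

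Of the 12 mitochondrially encoded protein genes tested, 8 were higher, or 4 without control 1 (median log2FC 0.32), beside the larger share of these counts given above. The values of mt-Nd1 were 66804, 72488 and 81379 normalized counts against 95988, 92156 and 91309 (log2FC 0.34), with a wide spread among the control libraries. The nuclear genes of the respiratory chain had 9 of 77 higher (11.7%) and 4 lower (5.19%). The higher count was 18 without Lap2 1 in 0.3% FBS and 5 without Lap2 3, and the lower count 2 without control 3 or Lap2 2. Atp5b, the β subunit of the ATP synthase, fell from 20114, 20225 and 20537 to 10241, 9895 and 9938 (log2FC -1.02, SE 0.06, adjusted p = 5.5e-15), 49.4% of control. Of 35 replication-dependent histone genes tested of 65 listed, 6 were higher and 2 averaged 100 normalized counts or more. Hist1h1c, a linker histone, had 1240, 1171 and 928 against 2332, 2645 and 2029 (log2FC 1.07), and Hist1h2ap had a log2FC of 0.81. Copies of these genes are nearly alike, so that reads could have been divided between them. Of 413 zinc finger genes of the Zfp, Zkscan, Zscan and Zbtb families, 69 were higher (16.7%) and 32 lower (7.75%). Neither share exceeded that of genes averaging 100 normalized counts or more (18.5% and 19.4%). In 0.3% FBS 39 were higher and 90 lower, beside 17.8% and 18.6% of all genes. Zfp141 had the largest rise of those with enough counts (75.4, 108 and 83.6 against 209, 197 and 185, log2FC 1.15) and Zfp773 the largest fall (146, 175 and 224 against 99.3, 65.7 and 87.9, log2FC -1.10).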

How the data were processed

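RNA was depleted of ribosomal RNA, made into directional libraries and sequenced on a NextSeq 500. Per the methods and the submitters' processing notes, the authors aligned the reads with TopHat2 at default settings to mm10 (GRCm38 per the labels) and counted reads per gene with HTSeq, and the deposited values are these raw counts, not normalized. The annotation and strand setting of the counting and the tool versions are not given in the sources used here, and the authors tested with DESeq per their methods (DESeq2 per the submitters' processing notes). Each library listed 49671 genes, of which 99.3% had a symbol. Names and coordinates were from GENCODE M21, and promoter sequences from RefSeq GRCm38.p6. Of 193 genes named by rule, 70 overlap a gene on the opposite strand, and their reads may be shared.

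Groups followed the labels. In edgeR 4.0.16, all 12 libraries entered 1 fit with a mean per group after TMM normalization, keeping the 18668 genes that exceeded 1 count in 3 or more libraries. The quasi-likelihood test with Benjamini-Hochberg adjustment gave Lap2 against control siRNA in 15% FBS and in 0.3% FBS, and the interaction. On simulated counts for the first comparison (18134 genes tested, 200 of them shifted by 1 on the log2 scale), 87% of these 200 and 11 others were called. The 200 were drawn without the genes of lowest counts. Recovery of smaller changes, such as the median sizes of 0.37 and 0.47 of the called genes, was not tested. Genes with few counts are less precise. Tables were made with pandas 2.3.3 in Python 3.11.15.

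The genes named were Tmpo, the 12 largest changes each way (adjusted p under 0.05, mean of at least 100 normalized counts over the 6 libraries, groups not overlapping), up to 3 per list and direction by the same conditions, and genes the study names. Other genes named with values (among them all lipid genes beyond the first 3, Actb, Actg1 and those with printed sequences) were chosen after their values were seen. A few genes are not reported here. Members and lists were chosen with earlier results of these data known. Alternatives were DESeq2 1.42.0, other scalings, filters, thresholds and fits, the replicate number as a block, and each library left out.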

Additional observations from a re-analysis of the deposited data

Results flagged for a closer look

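A gene appears here because the effect of Lap2 siRNA on it was called different in 15% and in 0.3% FBS, by the interaction test of the edgeR fit at an adjusted p under 0.05. This held for 85 of the 154 genes whose log2FC is printed, and 13.6% of all tested genes passed the same test. Values below are the log2FC in 15% FBS minus the log2FC in 0.3% FBS. No cause of these differences was tested.

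Among serum-induced and cytoskeletal genes the difference was -4.19 for Ccn2, -2.59 for its antisense neighbour Gm15270, -3.04 for Acta1, -2.08 for Nppb, -1.69 for Ankrd1, -0.61 for Acta2, -0.55 for Vcl, -0.29 for Actb, -1.12 for Mylk and -2.01 for Ccn1, but 0.62 for Tagln. Among immediate-early genes, feedback genes and their regulators it was -1.11 for Egr3, -0.38 for Egr1, -0.97 for Plk2, -0.62 for Srf, -0.76 for Errfi1, -0.80 for Spry4, -1.86 for Dusp6, -2.12 for Ptgs2 and -0.85 for Ier3, but 0.50 for Cebpb and 0.59 for Rnd3. For Tmpo it was -0.79, so its level was reduced further in 15% FBS than in 0.3% FBS.

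Genes of the cell cycle also had negative values, with -1.02 for Ccnd1, -0.41 for Ccnd2, -0.81 for Ccne1, -0.82 for Ccne2, -0.96 for Cenpf, -0.80 for Cdk1, -0.77 for Kif4, -0.52 for Cdt1, -0.47 for Cdc20 and -1.30 for Gtse1. In the nuclear envelope the values were -0.45 for Lmnb1, -0.44 for Lbr and -0.39 for Nemp1. Signalling and inflammatory genes had -1.48 for Tnfaip3, -0.92 for Lif, -1.09 for Inhba, -1.04 for Grem1, -0.64 for Fgf7 and -0.53 for Hgf, against 1.77 for Bcl3, 0.88 for Smad6, 0.53 for Gas6, 0.54 for Jag1 and 2.11 for Igfbp5.

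Matrix and adhesion genes had positive values, with 2.45 for Mfap4, 1.70 for Pi16, 1.09 for Mmp9, 0.90 for Itga9, 0.84 for Adamts9, 0.60 for Lox and 0.52 for Timp3, except -0.53 for Thbs2. Stress genes had 1.22 for Ddit4, 0.70 for Ddit3, 0.68 for Slc7a5, 0.54 for Atf5 and 0.56 for Sesn1, against -0.37 for Zmat3. Chaperone and nucleolar genes had -0.83 for Hsph1, -0.42 for Hspd1, -0.29 for Hsp90b1 and -0.42 for Nop56. Lipid and lysosomal genes had -0.34 for Lss, -0.40 for Gla and 0.68 for Lipa.

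The other genes named above had -0.87 for Spp1, -0.66 for Nadk2 and -0.45 for Per2, and 1.23 for Rasl11a, 1.03 for Rcan1, 0.99 for Bivm, 1.06 for Zfp141, 1.12 for Tubb2b, 0.61 for Gbp2 and 0.25 for Atp5b.

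Further genes were chosen after their values were seen, from the 6 largest differences in each direction among genes called with opposite signs that averaged 100 normalized counts or more in 15% FBS and did not overlap there. The others in those sets, Ccn2, Ccn1, Dusp6, Ankrd1 and Bcl3, are given above. Of the genes lower in 15% FBS and higher in 0.3% FBS, Prl2c2, a proliferin gene, had a difference of -1.90 (log2FC -0.89 and 1.02) and Stil, a centriole gene, -1.75 (log2FC -0.78 and 0.97). Of those higher in 15% FBS and lower in 0.3% FBS, the BH3-only gene Bmf had 1.82 (log2FC 0.88 and -0.94), the forkhead gene Foxc2 1.77 (log2FC 1.27 and -0.50), Sphk1, sphingosine kinase 1, 1.66 (log2FC 0.57 and -1.09), Spsb1 1.64 (log2FC 0.33 and -1.32) and Rasl11b 1.54 (log2FC 1.04 and -0.50).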

How the results depend on the processing

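Scaling to total counts gave 3471 higher genes. Counting only genes with a log2FC past 0.6 in size left 1170 genes (404 higher and 766 lower), and an adjusted p under 0.01 left 1345 higher genes and 1514 with an interaction. With each library left out in turn, the log2FC of Tmpo ranged from -2.23 to -2.08, the genes changed from 3410 to 5177 (1424 to 2431 higher and 1894 to 2746 lower) and those with an interaction from 1886 to 3529. The cause of these ranges was not tested. The labels number all libraries in sequence, and the order within a group was taken as the replicate number. Same-numbered libraries of the 2 groups in 15% FBS did not deviate together (r from -0.04 to 0.02 across genes). This showed no pairing in that order but cannot exclude pairing. The fit with the replicate block called 4344 genes (2112 higher and 2232 lower), 2552 with an interaction, and gave Tmpo a log2FC of -2.17. A fit of the 6 libraries alone called 5153 of 16884 genes. DESeq2 called 4404. Of the named genes' log2FC under the alternatives, 3730 values kept direction and side of the threshold, 97 lost the call and 11 gained it. Of genes with printed values, Mylk lost it under 11 settings (adjusted p 0.053 to 0.22), Lox and Trp53 under 4, Ccne1 under 3 and Cenpf under 2, and Fos gained it under 6, Gapdh under 3 and Ptgs2 and Ier3 under 1. Acta1 and Egr4 had too few counts to be tested where all libraries had to exceed 1 count. Low counts limit the lincRNA and histone values given above.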
